A study of Homo sapiens with 6 samples.

Results

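The BCL2 family decides, through contacts between its proteins at the outer mitochondrial membrane, whether that membrane is opened and the intrinsic route to apoptosis begins. The 10 members described here were fixed by name and fall into 3 roles: the survival genes BCL2, BCL2L1 (BCL-XL), BCL2L2 (BCL-w) and MCL1; the pore former BAK1; and the BH3-only genes BID, BIK, BCL2L11 (BIM), BAD and BMF, whose proteins carry a single BH3 helix. All 10 were found by symbol among 57500 genes of the deposited tables, and all 10 passed the filter on low counts and were tested. The RNA came from 22Rv1 cells, a human line established from prostate cancer, grown in RPMI-1640 with fetal bovine serum. A parental group, called wild type and control in the labels, held 3 libraries, and the liver-derived group, which the labels trace to a metastasis in the liver, held another 3. No treatment is named for either group, and the labels do not say how many metastases, animals or clones gave rise to the liver-derived cells or whether libraries of a group came from separate cultures, so p-values measure only the spread between these libraries. The question put to the members is how the RNA of survival and death genes of the family compared in liver-derived and parental cells.

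In healthy cells, survival proteins hold BAK1 and the related BAX in check by binding their BH3 helices. BH3-only proteins are the upstream sensors: BIM and BID can engage BAX and BAK1 directly, whereas BAD, BIK and BMF act mainly by occupying the groove of survival proteins. Many prostate cancer cells are known to lean on MCL1 and BCL-XL, and several BH3-only genes are switched on or off at the level of transcription by growth factor withdrawal, stress or loss of attachment, the setting in which BMF is best known.

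BMF, BIK and BCL2L11 rose, and for BMF and BCL2L11 the DNA before annotated starts is shown so that the stretch upstream can be read beside their values; BIK is named only. RefSeq's table (GRCh38.p14) held 7 of the 10 members, with 14 start sites, 2 of them for BMF. Each line gives the 250 bases before a start, 5′ to 3′ on the gene's strand, and capitals mark matches on either strand to the searched motifs. The upstream BMF window is chr15:40108880-40109129, minus strand, of which 13 bases lie in exons of BMF as counted. The second BMF window is chr15:40106967-40107216, minus strand, and the BCL2L11 window is chr2:111120664-111120913, plus strand; both lie inside the annotated gene, and neither overlaps a counted exon of it.
BMF upstream start: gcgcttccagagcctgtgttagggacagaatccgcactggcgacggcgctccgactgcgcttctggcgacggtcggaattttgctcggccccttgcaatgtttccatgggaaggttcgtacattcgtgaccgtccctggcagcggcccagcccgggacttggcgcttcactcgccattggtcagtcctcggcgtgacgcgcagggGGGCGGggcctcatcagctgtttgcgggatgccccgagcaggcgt
BMF second start: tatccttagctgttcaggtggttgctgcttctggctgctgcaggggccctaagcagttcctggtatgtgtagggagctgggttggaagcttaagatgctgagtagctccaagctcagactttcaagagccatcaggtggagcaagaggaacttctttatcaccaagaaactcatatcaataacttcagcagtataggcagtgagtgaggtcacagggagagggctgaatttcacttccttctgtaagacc
BCL2L11 start: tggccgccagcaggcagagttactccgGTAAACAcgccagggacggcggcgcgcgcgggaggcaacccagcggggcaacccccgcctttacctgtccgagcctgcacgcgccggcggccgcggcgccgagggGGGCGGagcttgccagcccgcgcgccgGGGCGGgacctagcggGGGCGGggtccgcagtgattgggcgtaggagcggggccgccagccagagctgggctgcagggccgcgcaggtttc

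The motifs searched were the GC box GGGCGG, the forkhead (FOXO) site GTAAACA, the E-box CACGTG, the AP-1 site TGANTCA and the C/EBP-ATF composite TGATGCAA, on both strands, and no matches to different motifs overlapped in these windows. The BCL2L11 window held 1 GTAAACA, beginning 223 bases before the start, and 3 GC boxes; GTAAACA was present in 2.98% and the GC box in 42.6% of 35116 windows of the same length. The upstream BMF window held 1 GC box, 45 bases before its start, and the second BMF window held none of these motifs. GC content was 76.8% in the BCL2L11 window, 65.2% in the upstream BMF window and 48.8% in the second BMF window, with 34, 26 and 0 CpG dinucleotides, against medians of 58.0% and 11 over all windows. The counts are per gene, so reads from the BMF starts were not separated, and a match to letters is a description of the window only.

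Library totals ranged from 28395265 to 53275252 counts. Levels are given as CPM, counts scaled to a common library size after TMM normalisation, or as TPM, transcripts on a common scale, which also divides by gene length and is the scale used to set one gene beside another. A gene was called where the edgeR quasi-likelihood test gave a Benjamini-Hochberg adjusted p under 0.05 over all 19255 genes tested. Parental replicate 2 differed from replicates 1 and 3 of its group (chi-square of gene counts, divided by its degrees of freedom, of 55.3 and 61.8, against 2.24 between replicates 1 and 3), so results are also given without it. Its part in each result beyond those values was not tested. The 8 prostate epithelial markers checked, among them KLK3 and KRT8, were present at 3439 to 3603 CPM in sum in the parental and 3278 to 3345 CPM in the liver-derived libraries. Of 9 hepatocyte markers, 7 stayed under 1 CPM in every library; the list summed to 43.1 to 53.7 CPM in parental and 65.3 to 68.8 CPM in liver-derived libraries, nearly all of it ALB. Of 13 stromal, endothelial and leukocyte markers, CD3E and CDH5 were at 0 in all libraries, 8 stayed under 1 CPM, and the sums were 22.8 to 26.8 and 22.2 to 24.6 CPM. The part of other cells in the results was not tested, and in bulk RNA fewer cells expressing a gene and less RNA per cell cannot be told apart.

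Among the members, BMF, BIK and BCL2L11 were higher and BCL2L2 was lower in the liver-derived cells, and the other 6 did not pass. BMF rose 6.88-fold, BIK 2.99-fold and BCL2L11 1.65-fold, and BCL2L2 fell 1.27-fold. Over all genes 38.8% were called, 17.5% higher and 21.3% lower, so 4 of 10 called is close to the share over all genes. The median log2 fold change of the members was -0.0069, against -0.0075 over all genes tested. Groups did not overlap for 7 of the 10, higher for 4 and lower for 3, against 54.0% of all genes without overlap (26.1% higher, 27.9% lower).

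**Figure D1:**
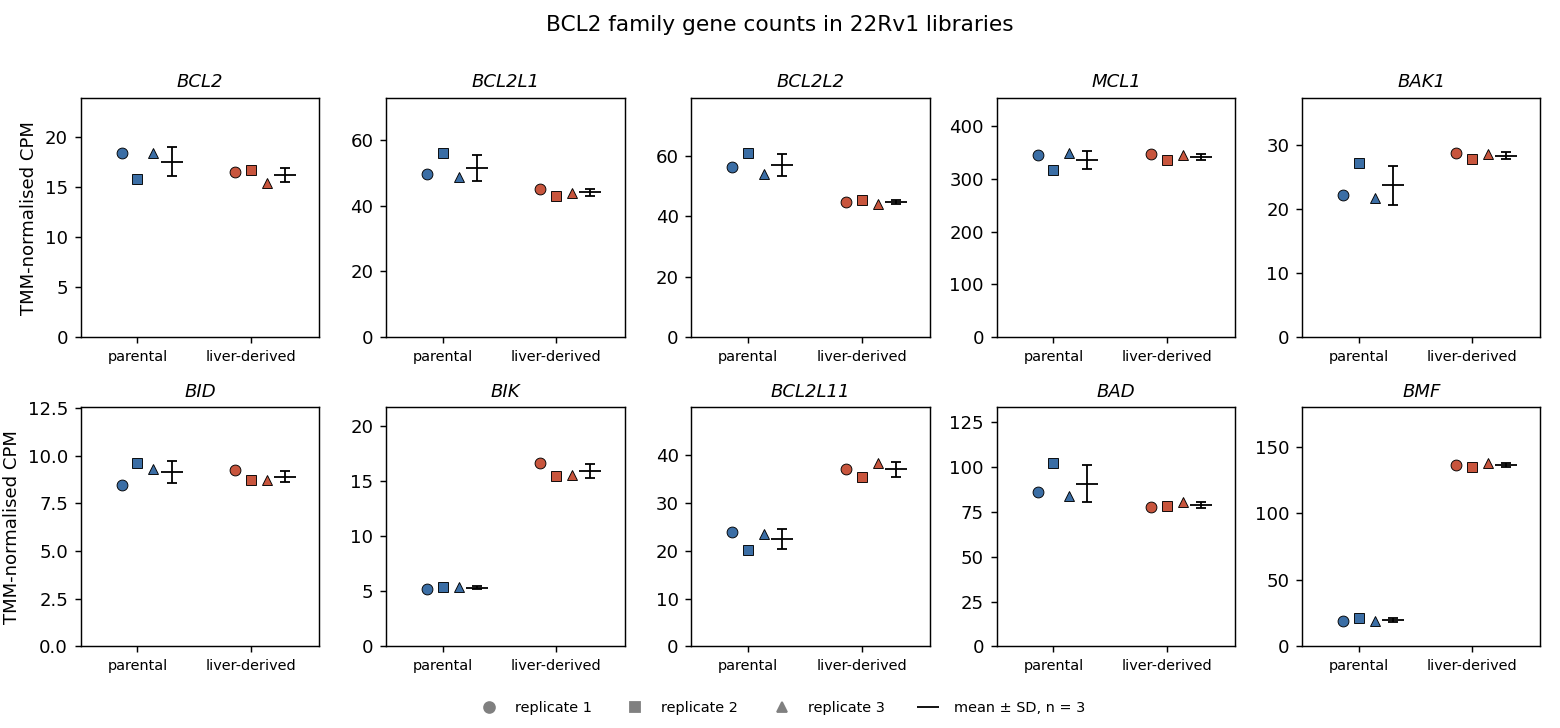
TMM-normalised CPM (y axis, from 0, own scale per gene) of the 10 BCL2 family members in the parental and liver-derived libraries; symbols give the replicate and bars the mean and SD of 3 libraries. BMF, BIK and BCL2L11 are higher in every liver-derived library than in any parental one, whereas MCL1, BCL2 and BID overlap.

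BMF, a BH3-only protein that is held at the actin-linked myosin motor through a dynein light chain until released, showed the largest change of the family. Parental replicates 1 to 3 held BMF at 18.8, 21.7 and 19.0 CPM, and the liver-derived libraries held it at 136, 135 and 138 CPM. The lowest liver-derived library lay far above the highest parental one, and neither group varied much within itself. BMF averaged 19.8 ± 1.59 CPM in parental and 136 ± 1.78 CPM in liver-derived libraries (SD, n = 3 per group), and the fitted log2 fold change was 2.78 (SE 0.08, adjusted p = 4.84e-08 by edgeR). In order of fitted change, BMF was gene 83 from the top of 19255. Raw counts ran from 914 to 1003 in parental libraries and from 3761 to 7125 in liver-derived ones. BMF (ENSG00000104081) lies on the minus strand at chromosome 15, 40087890 to 40108892 (GRCh38); BMF-AS1 overlaps 8.46% of its exon bases on the opposite strand and held 0 counts in all libraries. BMF kept its call in each of 19 alternatives, with log2 fold changes from 2.66 to 2.87.

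BIK, a BH3-only protein resident at the endoplasmic reticulum, was the next largest. Its levels were 5.19, 5.35 and 5.42 CPM in the parental libraries and 16.7, 15.5 and 15.6 CPM in the liver-derived ones. The 3 parental libraries were nearly level, and all liver-derived libraries lay well above them. The means were 5.32 ± 0.121 and 15.9 ± 0.666 CPM, a log2 fold change of 1.58 (SE 0.08, edgeR adjusted p = 1.01e-06). BIK ranked 344 of 19255 from the top. BIK (ENSG00000100290; chromosome 22, 43110748 to 43129712, plus strand) had 243 to 286 raw counts in parental libraries and 433 to 871 in liver-derived ones. It was called in all 19 alternatives, with values from 1.49 to 1.62.

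BCL2L11 encodes BIM, a BH3-only protein that binds all survival members. It stood at 23.8, 20.0 and 23.5 CPM in the parental libraries and reached 37.1, 35.3 and 38.4 CPM in the liver-derived ones. Parental replicate 2 was the lowest library, and the groups were clearly apart. The means were 22.4 ± 2.08 and 36.9 ± 1.54 CPM, a log2 fold change of 0.72 (SE 0.09, edgeR adjusted p = 2.47e-04). BCL2L11 (ENSG00000153094; chromosome 2, 111119378 to 111168447, plus strand) was called in all 19 alternatives, from 0.64 to 0.77, and stood at 0.65 without parental replicate 2. BIM is made as several splice forms of differing potency, which gene counts do not separate.

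BAD and BID, the remaining BH3-only members, were not called. BAD, which growth factor kinases phosphorylate and park on 14-3-3 proteins, stood at 86.0, 102 and 83.6 CPM in the parental and 77.6, 78.1 and 80.4 CPM in the liver-derived libraries. The liver-derived values lay under all parental ones, by a small margin next to replicate 3 and a wide one next to replicate 2. The log2 fold change was -0.20 (95% interval -0.41 to -0.00105, edgeR adjusted p = 0.104). Without parental replicate 2 it was -0.11 and passed (edgeR adjusted p = 0.00268), and after a correction for GC content it was -0.0012 (edgeR adjusted p = 0.981). BAD (ENSG00000002330; chromosome 11, 64269830 to 64284704, minus strand) had the highest transcript GC content of the family, 66.3%, and shares 23.7% of its exon bases with GPR137 on the opposite strand, a gene with 1515 to 4050 counts that was itself lower (-0.45, edgeR adjusted p = 0.0156), so the count of BAD is uncertain. BID, which caspase-8 cleaves to link death receptors to mitochondria, stood at 8.48, 9.63 and 9.31 CPM against 9.25, 8.73 and 8.71 CPM. The groups overlapped, and the log2 fold change of -0.04 had a 95% interval of -0.24 to 0.16 (edgeR adjusted p = 0.776). BID (ENSG00000015475) lies at chromosome 22, 17734138 to 17774770, minus strand.

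**Figure D2:**
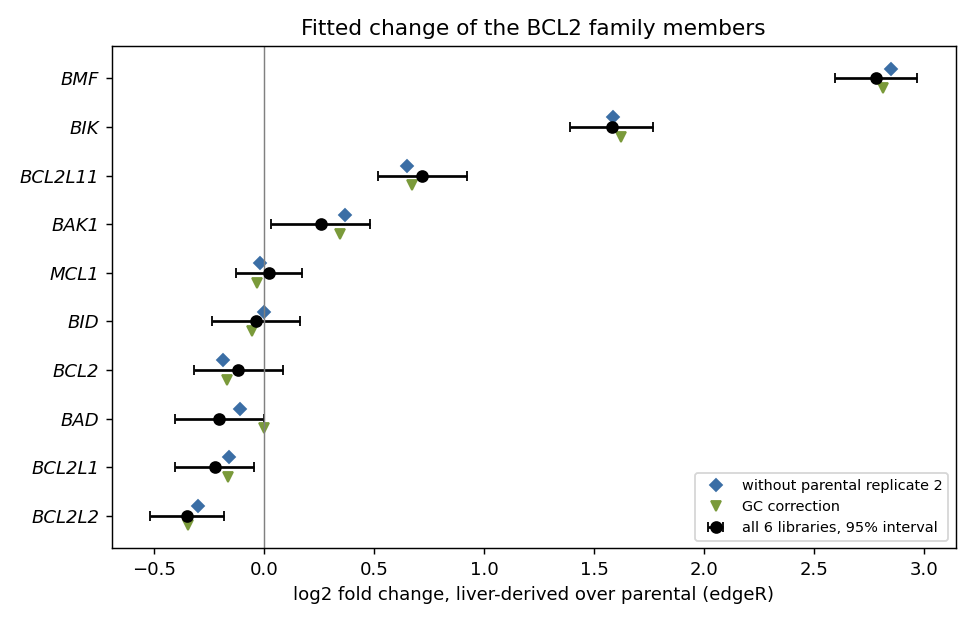
Fitted log2 fold change (x axis, liver-derived over parental) of each member with its 95% interval over all 6 libraries (black), and the value without parental replicate 2 (blue diamonds) and after the GC correction (green triangles). BMF, BIK, BCL2L11 and BCL2L2 keep their distance from 0 under all 3 fits, while BAD lies at -0.20, -0.11 and -0.0012.

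Of the survival genes, BCL2L2 fell and the others did not pass. BCL2L2, which encodes BCL-w, stood at 56.2, 60.9 and 53.9 CPM in the parental and 44.8, 45.3 and 44.3 CPM in the liver-derived libraries. Every liver-derived value was under every parental one. The means were 57.0 ± 3.56 and 44.8 ± 0.525 CPM, a log2 fold change of -0.35 (SE 0.07, edgeR adjusted p = 0.00522), and the call held in all 19 alternatives, from -0.40 to -0.29. BCL2L2 (ENSG00000129473; chromosome 14, 23298790 to 23311759, plus strand) shares 19.4% of its exon bases with the read-through gene BCL2L2-PABPN1, which held 38 to 78 counts, and 4.92% with PPP1R3E on the opposite strand, which held 491 to 1030; how the authors' counting divided these reads is not known. PPP1R3E was itself lower (log2 fold change -0.26, edgeR adjusted p = 0.0261). PABPN1, the gene downstream in that read-through, stood at 150 and 149 CPM (log2 fold change -0.0041).

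BCL2L1, which gives rise to both the long survival form BCL-XL and a short pro-death form that gene counts cannot separate, stood at 49.7, 55.9 and 48.6 CPM against 45.1, 42.9 and 43.9 CPM. The groups did not overlap, but parental replicate 2 widened the parental spread. The log2 fold change was -0.22 (SE 0.08, 95% interval -0.40 to -0.04) and missed the threshold (edgeR adjusted p = 0.0517). BCL2L1 was lower in all 19 alternatives and passed in 9, with adjusted p from 5.85e-04 without parental replicate 2, where the value was -0.16, to 0.203 without liver-derived replicate 2. BCL2L1 (ENSG00000171552; chromosome 20, 31664452 to 31723989, minus strand) shares 43.0% of its exon bases with ABALON on the opposite strand, which held 16 to 61 counts.

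MCL1, a short-lived survival protein, had the highest TPM of the members in both groups and was not called. It stood at 344, 317 and 348 CPM in the parental and 346, 335 and 344 CPM in the liver-derived libraries. The groups overlapped, and the log2 fold change of 0.02 had a 95% interval of -0.13 to 0.17 (edgeR adjusted p = 0.812). Its sign turned in 6 of 19 alternatives, without parental replicate 2 (-0.018), with library size alone (-0.030), after the GC correction (-0.030) and in the 3 fits to TPM (-0.016 each), and it passed in none. MCL1 (ENSG00000143384) lies at chromosome 1, 150574551 to 150579738, minus strand.

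BCL2, the founding survival gene, stood at 18.3, 15.8 and 18.3 CPM in the parental and 16.4, 16.6 and 15.4 CPM in the liver-derived libraries. Parental replicate 2 fell among the liver-derived values. The log2 fold change was -0.12 (95% interval -0.32 to 0.09, edgeR adjusted p = 0.344); without parental replicate 2 it was -0.19 and passed (edgeR adjusted p = 0.00736). BCL2 (ENSG00000171791) lies at chromosome 18, 63123346 to 63320128, minus strand.

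BAK1, the only pore former among the members, stood at 22.2, 27.2 and 21.7 CPM in the parental and 28.7, 27.8 and 28.6 CPM in the liver-derived libraries. The liver-derived libraries were all higher, yet parental replicate 2 came within 1 CPM of the lowest of them. The log2 fold change was 0.26 (SE 0.10, edgeR adjusted p = 0.0693), and without parental replicate 2 it was 0.37 and passed (edgeR adjusted p = 6.10e-08). BAK1 (ENSG00000030110; chromosome 6, 33572547 to 33580293, minus strand) has a processed pseudogene, BAK1P1, which held 2 to 14 counts.

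Without parental replicate 2, 8 of the 10 members were called, 4 higher (BAK1 joined BMF, BIK and BCL2L11) and 4 lower (BCL2, BCL2L1, BCL2L2 and BAD), and BID and MCL1 did not pass. In that fit 59.8% of all genes tested were called, 28.8% higher and 31.0% lower. Parental replicate 2 was below the mean of parental replicates 1 and 3 in BCL2, MCL1 and BCL2L11, by 0.13 to 0.24 on the log2 scale, and above it in the other 7, by up to 0.31 in BAK1. The first 3 had the lowest transcript GC content of the family, 45.1% to 45.7%, and the other 7 ran from 49.7% to 66.3%. The GC correction called 7 members, 4 higher and 3 lower, against 56.7% of all genes (27.4% higher, 29.3% lower). Without both second replicates 8 members were called, where 59.7% of all genes were (29.5% higher, 30.3% lower), and with DESeq2 4 were, where 30.4% of all genes were (13.9% higher, 16.5% lower). The limma fit to log2(TPM + 1) called 7 members, 4 higher and 3 lower, where 37.0% of all genes were called (15.2% higher, 21.7% lower), and that to log2(TPM + 0.1) also called 7, 4 higher and 3 lower, where 36.4% were (14.9% higher, 21.5% lower).

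On the TPM scale, which allows levels of different genes to be set side by side, the order of the members differed between the groups. In the parental libraries MCL1 (278 ± 25.7 TPM) and BAD (191 ± 12.9) led, followed by BCL2L1 (55.9 ± 1.78), BCL2L2 (49.1 ± 1.09) and BAK1 (38.6 ± 3.20). BIK (20.2 ± 0.933), BMF (13.1 ± 0.481), BCL2L11 (12.2 ± 1.61), BID (7.42 ± 0.378) and BCL2 (5.38 ± 0.665) were the low members. BMF and BCL2L11 did not differ beyond their spread in the parental cells. In the liver-derived libraries BMF, at 87.9 ± 0.854 TPM, came after MCL1 (275 ± 4.24) and BAD (162 ± 2.40), and BIK, at 58.6 ± 2.57 TPM, came next. BCL2L1 (46.6 ± 1.21) and BAK1 (45.0 ± 0.742) followed and lay within their spread of each other, and BCL2L2 (37.5 ± 0.576), BCL2L11 (19.5 ± 0.750), BID (7.03 ± 0.255) and BCL2 (4.82 ± 0.223) were lower.

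**Figure D3:**
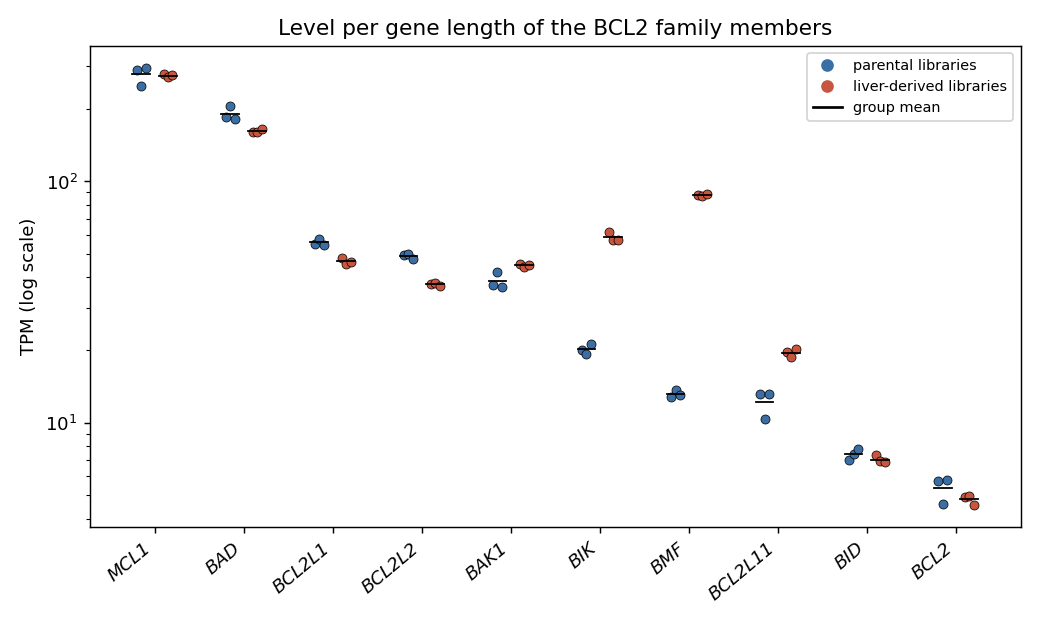
TPM (log axis) of the 10 members in each library, parental in blue and liver-derived in red, ordered by the parental mean; lines mark group means. BMF moves from 13.1 to 87.9 TPM and BIK from 20.2 to 58.6 TPM, past BAK1, BCL2L1 and BCL2L2, which lie between 37.5 and 55.9 TPM.

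MCL1 made up most of the survival RNA in both groups. Its share of the summed TPM of the 4 survival genes was 72.4%, 68.9% and 73.2% in the parental and 75.5%, 75.3% and 75.8% in the liver-derived libraries. BCL2L1 held 14.4% ± 1.38 and 12.8% ± 0.155, BCL2L2 12.7% ± 1.03 and 10.3% ± 0.248, and BCL2 1.38% ± 0.0899 and 1.33% ± 0.0655. The summed survival TPM was 401, 361 and 404 in the parental and 369, 359 and 363 in the liver-derived libraries, so the groups overlapped at parental replicate 2.

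The BH3-only RNA changed more in its make-up. Its sum over 5 genes was 238, 257 and 237 TPM in the parental and 337, 331 and 337 TPM in the liver-derived libraries. BAD held 78.3% ± 1.77 of that sum in the parental and 48.3% ± 0.703 in the liver-derived cells, BMF 5.38% ± 0.0846 and 26.3% ± 0.0637, and BIK 8.28% ± 0.711 and 17.5% ± 0.712. BCL2L11 held 5.02% ± 0.864 and 5.81% ± 0.166, and BID 3.04% ± 0.210 and 2.10% ± 0.0721. The ratio of BH3-only to survival TPM was 0.595, 0.711 and 0.587 in the parental and 0.913, 0.923 and 0.929 in the liver-derived libraries. These sums and shares are descriptions of RNA, without a test. They cover the listed members only and leave out other BH3-only genes, among them BBC3 and PMAIP1. The count of BAD, the largest part of the BH3-only sum, is uncertain because of its overlap with GPR137. BCL2L1 and BCL2L2 share 43.0% and 19.4% of their exon bases with ABALON and BCL2L2-PABPN1, and how those reads were counted is not known. Their TPM and place in the order of members are therefore uncertain too, as are the survival sum, the shares of it and the ratio.

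Within 1 Mb, no tested protein-coding neighbour of BMF rose as much as BMF, and none of BIK as much as BIK. With BMF and BIK ranked 83 and 344 from the top of 19255 genes, few genes anywhere rose as much. Their place above their neighbours therefore does not show a change confined to them. Among 32 tested protein-coding genes within 1 Mb of BMF, 9 were higher and 6 lower, with a median log2 fold change of 0.03, and the highest were PHGR1 (2.37) and CHAC1 (1.90). The nearest on either side, SRP14 and BUB1B, stood at 0.08 (edgeR adjusted p = 0.370) and 0.17 (edgeR adjusted p = 0.0739). Around BIK, 4 of 18 neighbours were higher and 3 lower, with a median of 0.07; MCAT, 2494 bases away, stood at 0.07. BCL2L11 had 8 neighbours, 2 higher and 2 lower, with a median of -0.16; its nearest, ACOXL, fell from 1.77 to 0.246 CPM (-2.86), and MERTK, at 1.11, was the one above BCL2L11. Around BCL2L2, 9 of 62 were higher and 14 lower, with a median of -0.12. For the members not called, neighbours of BAD gave 3 higher and 22 lower of 53, with a median of -0.20, close to BAD itself at -0.20. Neighbours of BID gave 1 and 7 of 14, of BAK1 3 and 14 of 41, and of MCL1 4 and 14 of 54. Those of BCL2L1 gave 3 and 6 of 17, and those of BCL2 4 and 1 of 9. These counts are to be read against the shares over all genes tested, 17.5% higher and 21.3% lower.

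**Figure D4:**
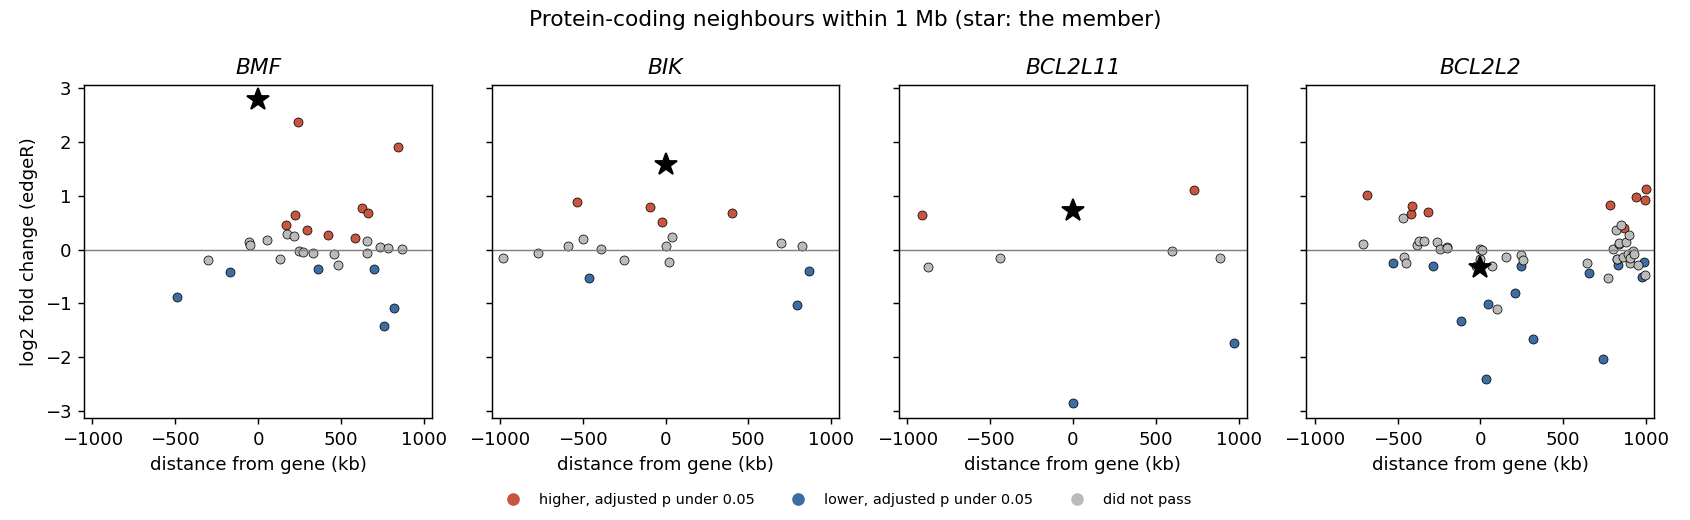
Fitted log2 fold change (y axis) of tested protein-coding genes against their distance in kb from BMF, BIK, BCL2L11 and BCL2L2 (stars), coloured by call. BMF (2.78) and BIK (1.58) lie above all of their 32 and 18 neighbours, and above most genes tested anywhere.

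Genes that act beside the members were taken from 8 lists of general knowledge holding 98 genes, of which 90 were tested, 18 higher and 15 lower. That is 36.7% called, with a median log2 fold change of 0.07, against 38.8% and -0.0075 over all genes. Without parental replicate 2 the lists held 39 higher and 25 lower of 90, where 59.8% of all genes were called (28.8% higher, 31.0% lower). Counts of single lists without that library are to be read against the same shares. Without liver-derived replicate 1, 2 or 3 they held 8, 9 and 8 lower.

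Other genes of the BCL2 family included the second pore former. BAX, which shares that role with BAK1, stood at 83.3, 112 and 86.7 CPM in the parental and 37.9, 36.0 and 36.7 CPM in the liver-derived libraries. The groups were wide apart, with a log2 fold change of -1.35 (SE 0.11, edgeR adjusted p = 2.31e-05). BOK, a further pore-forming relative, fell from 29.9 ± 3.83 to 15.5 ± 0.893 CPM (-0.95), and HRK, a BH3-only gene at low level, rose from 1.88 ± 0.299 to 4.22 ± 0.565 CPM (1.15). Of 14 tested, 2 rose, 2 fell and 10 did not pass, with a median of 0.18; without parental replicate 2, 8 rose and 2 fell, and leaving out any 1 of the liver-derived libraries left 1 that rose. BBC3 (PUMA) and PMAIP1 (NOXA), both BH3-only and named after their values were seen, stood at 43.5 and 44.8 CPM (0.04) and at 13.2 and 16.2 CPM (0.30) and did not pass.

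The list of caspase and apoptosome genes, which act after the mitochondrial membrane is opened, gave 1 higher and 3 lower of 11 (2 and 5 without parental replicate 2; 1 to 2 lower without any 1 liver-derived library). CASP9, the initiator caspase, rose from 13.1 ± 1.63 to 17.9 ± 0.0880 CPM (0.45), and APAF1, its scaffold, fell from 27.6 ± 3.23 to 20.5 ± 1.31 CPM (-0.43). APAF1 did not pass without liver-derived replicate 1 or in the unfiltered TPM fit (limma adjusted p = 0.0710). ENDOG, a mitochondrial nuclease gene that overlaps SPOUT1 on the opposite strand over 39.2% of its exon bases, fell by 0.73 on the log2 scale; it did not pass without both second replicates (edgeR adjusted p = 0.138). Of 7 tested inhibitor-of-apoptosis genes and antagonists, 2 rose and 0 fell at the threshold (4 and 0 without parental replicate 2): BIRC3, from 1.04 ± 0.255 to 2.38 ± 0.173 CPM (1.20), and DIABLO, which encodes the IAP antagonist SMAC and partly overlaps B3GNT4, from 27.6 ± 1.28 to 35.0 ± 1.52 CPM (0.34). DIABLO did not pass in the unfiltered TPM fit (limma adjusted p = 0.0647).

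Of the extrinsic route, 4 receptor genes rose, TNFRSF10B, TNFRSF10D, TNFRSF1A and, named after its value was seen, TNFRSF10A (0.34). TNFRSF10B, the TRAIL receptor DR5, stood at 71.3, 72.1 and 70.4 CPM in the parental libraries and reached 208, 205 and 205 CPM in the liver-derived ones. The groups were far apart and each was tight, with a log2 fold change of 1.53 (SE 0.06, edgeR adjusted p = 2.27e-07). TNFRSF10D, a TRAIL receptor with a truncated death domain, rose by 0.68 and TNFRSF1A, a TNF receptor, by 0.42 on the log2 scale. Of 11 tested genes of that pathway, 4 rose and 2 fell, with a median of 0.09. The rises numbered 5 without parental replicate 2, 3 without parental replicate 1 or liver-derived replicate 2, and 4 without any 1 of the other libraries. The 2 that fell, FAS (-0.39) and CFLAR (-0.29), were named after their values were seen; the falls numbered 3 without parental replicate 2, 1 without parental replicate 3 or liver-derived replicate 2 and 0 without any 1 of the other libraries.

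Partners that hold or modify BIM, BMF and BAD mostly did not pass: of 20, 2 rose and 2 fell (8 and 4 without parental replicate 2, 1 rose without parental replicate 1, and 1 and 1 without any 1 liver-derived library). PIM3, a kinase of the PIM family, which phosphorylates BAD, rose from 261 ± 38.2 to 542 ± 20.4 CPM (1.05). MAPK3, the gene of ERK1, fell from 57.8 ± 7.43 to 36.7 ± 0.389 CPM (-0.65), and SFN, a 14-3-3 protein, from 456 ± 72.1 to 370 ± 6.29 CPM (-0.30). SFN passed in 14 of 19 alternatives, with adjusted p up to 0.156 without liver-derived replicate 2. DYNLL2, the dynein light chain that binds BMF, stood at 314 and 342 CPM (0.12), and DYNLL1, which binds BIM, at 241 and 231 CPM (-0.06); neither passed, and both were named after their values were seen.

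Genes of MCL1 protein turnover gave 1 higher and 3 lower of 11 (2 and 5 without parental replicate 2; 1 to 2 lower without any 1 liver-derived library). USP13, a deubiquitinase that stabilises MCL1, fell from 43.2 ± 5.27 to 18.6 ± 0.0958 CPM (-1.21). HUWE1, a ubiquitin ligase of MCL1, fell from 237 ± 14.8 to 194 ± 4.59 CPM (-0.29) and did not pass without any 1 liver-derived library (edgeR adjusted p up to 0.0672). MARCHF5, a mitochondrial ubiquitin ligase, rose from 60.6 to 83.1 CPM (0.46) and did not pass in the unfiltered TPM fit (limma adjusted p = 0.0808). Of 6 genes in the list drawn up around BAK1 and BID, 1 rose, TMBIM6 (BAX inhibitor 1), from 1377 ± 40.3 to 1753 ± 18.7 CPM (0.35). It was not shown here to be a partner of either. Without parental replicate 2, 4 genes of that list rose and 2 fell.

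Transcription factors known to act on BH3-only genes changed in both directions. FOXO1, a forkhead factor of the type that binds GTAAACA, rose from 9.67 ± 0.529 to 16.3 ± 0.638 CPM (0.75), and CEBPB rose from 64.8 ± 5.33 to 109 ± 14.0 CPM (0.75). TP73, a transcription factor gene whose exons overlap TP73-AS1 on the opposite strand, fell from 6.21 ± 0.878 to 1.64 ± 0.193 CPM (-1.91). Of 10 tested, 5 rose, 3 fell and 2 did not pass, with a median of 0.30; the falls numbered 4 without parental replicate 2 or 3 and 2 without any 1 of the other libraries. CEBPB did not pass without both second replicates (edgeR adjusted p = 0.0756). Named after their values were seen, DDIT3 (CHOP), a stress factor linked to BIM and DR5, rose from 39.9 to 57.1 CPM (0.52), and FOXO3 stood at 38.7 and 44.0 CPM (0.18) without passing. DDIT3 shares 28.0% of its exon bases with MARS1 on the opposite strand. MARS1 held 10633 to 20557 counts against 1656 to 2934 for DDIT3, so the count of DDIT3 is uncertain.

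**Figure D5:**
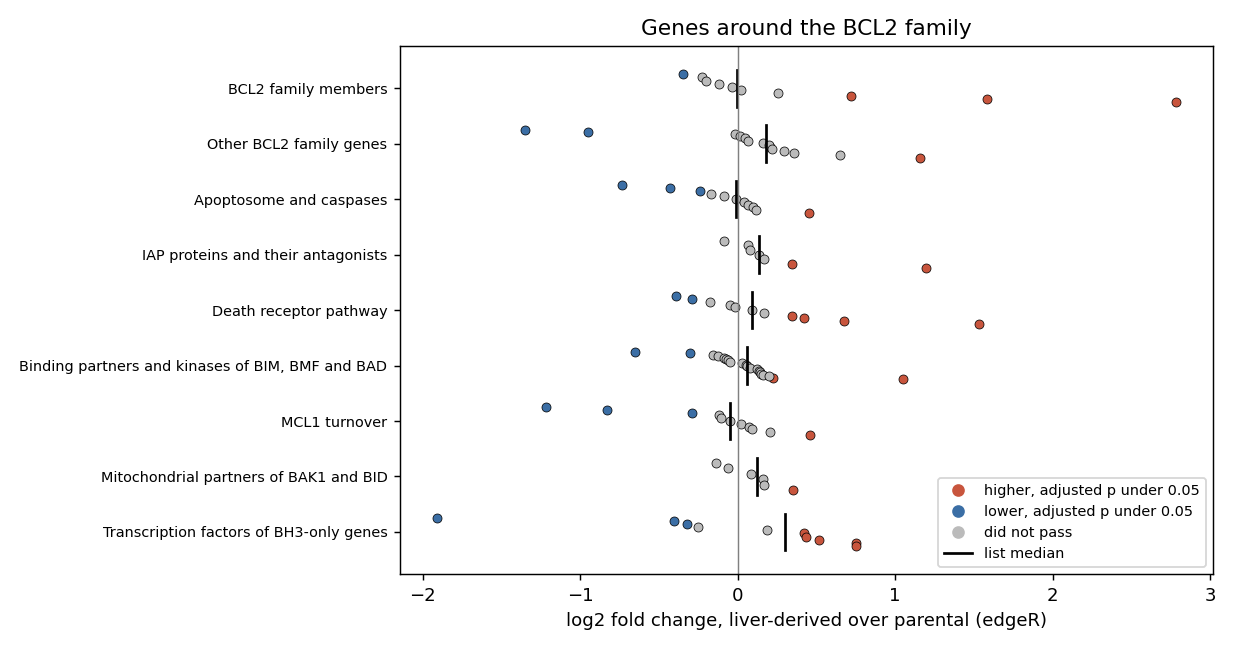
Fitted log2 fold change (x axis, liver-derived over parental) of each tested gene in the members' group and the 8 lists around it, coloured by call, with list medians as vertical lines. BMF (2.78) is the highest gene shown and TP73 (-1.91) the lowest; list medians lie between -0.049 and 0.30.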

How the data were processed

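RNA of 6 libraries of 22Rv1 cells, 3 parental and 3 liver-derived by their titles, was polyA-selected and sequenced as paired reads, per the labels' protocols. Reads were processed with Trimmomatic 0.36, STAR 2.5.2b and featureCounts of Subread 1.5.2 on GRCh38, per the submitters' processing notes, with strand setting and other parameters not given in the sources used here. The files deposited by the authors are raw gene counts, one per library, and a table of TPM, which matched TPM recomputed from counts and lengths within a relative 1e-04. Its 391182 rows without a gene were left out. The table of gene symbols matched 98.1% of identifiers; GENCODE 29 gave biotype and GC content, and all 10 members had the same ends in it.

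The test was that of edgeR 4.0.16, run in R 4.3.3, on the counts: filterByExpr, TMM, robust quasi-likelihood fit on group alone, Benjamini-Hochberg over 19255 genes. Errors are SD over 3 libraries or SE of the log2 fold change; 95% intervals use the fit's t quantile. The common biological coefficient of variation was 9.57%. Alternatives used limma 3.58.1, DESeq2 1.42.0, other scalings and filters, log2(TPM + 1) or log2(TPM + 0.1), a GC correction (a smooth curve per library), and libraries left out. The fitting steps were run on simulated counts with few genes changed, no GC trend and no library differing from its group as parental replicate 2 does. That run therefore cannot show how the fits behave under those features of the data. The members, lists and settings were chosen with earlier results of these data known. All 10 members are named, and from each list up to 3 called genes, those that changed most and reached 1 CPM in a group mean; others are said to be named after their values were seen.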

Additional observations from a re-analysis of the deposited data

How the results depend on the processing

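BMF, BIK, BCL2L11 and BCL2L2 kept direction and call in all 19 alternatives. Members called numbered 4 in all libraries together, and 7 with log2(TPM + 1), log2(TPM + 0.1) or the GC correction, and 8 without both second replicates. The count lower, 1, was 2 with upper-quartile factors or CPM of at least 1 in 3 libraries, 3 with library size alone, with each of the 3 TPM fits or the GC correction, and 4 without both second replicates. Leaving out 1 library in turn gave 4 to 8 members called, 1 to 4 of them lower, the top values coming without parental replicate 2. Over all genes, 7476 were called (3375 higher, 4101 lower), 11677 without both second replicates (5759 higher), 10865 with the GC correction (5254 higher), and 6456 and 6358 with log2(TPM + 1) and log2(TPM + 0.1); with 1 library left out the counts ran from 5600 to 11870, with 2432 to 5714 higher and 3168 to 6156 lower. The wider lists held 36 higher and 23 lower with the GC correction and 39 and 25 without both second replicates; with 1 library left out, 15 to 39 were higher and 8 to 25 lower. MCL1 turned to -0.030 with library size alone, -0.030 with the GC correction, -0.016 in each TPM fit and -0.018 without parental replicate 2 (-0.018 to 0.051 with 1 library left out); BID turned to 0.024 without both second replicates and 0.0017 without parental replicate 2 (-0.093 to 0.0017 with 1 library left out). Apart from the libraries left out, the cause was not tested. With the replicate number as a term (replicate block) 4 members and 7052 genes were called. Deviations of same-numbered libraries correlated at -0.0084, 0.0093 and 0.072, and 1 of 3 numbers correlated best with itself. With 3 libraries per group these correlations cannot decide whether same-numbered libraries shared a day or culture, and the labels do not say. BIK and BID rest on the fewest counts of the family, with as few as 243 and 244 in a library.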
